A study of Mus musculus with 8 samples.

Results

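Chromatin accessibility at 38 imprinted genes was described in sorted cells of mouse embryoid bodies, which are aggregates of differentiating embryonic stem cells. Regions of the ATAC-seq table were taken as members where their midpoint had a listed gene as the nearest protein-coding gene span in the mouse build mm10, inside the span or within 100 kb of it. This gave 573 of 168842 regions, at least 1 for each of the 38 genes, and 569 of the 573 had the mean of at least 10 normalized reads over the 8 libraries that was required for testing. Of the members, 329 lay inside a listed gene and 244 outside, and 39 had their midpoint within 1 kb of an end of a listed gene. By chromosome neighbourhood the genes formed 19 clusters, which held from 7 regions at Impact to 82 at the Peg10 cluster.

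The libraries fell into 4 groups of 2, all from cells sorted on day 4 of differentiation for FLK1, the VEGF receptor encoded by Kdr, and for presence or absence of PDGFRalpha. WT DP and WT SP were wild-type cells of the line A2lox.Cre, with PDGFRalpha in DP and without it in SP. KO DP cells carried both receptors and came from a separate line called Etv2 knockout, and OE SP cells carried FLK1 without PDGFRalpha and came from the line iETV2, given doxycycline at 2 µg/ml from day 2.5. The ETS factor Etv2 is needed for blood and vessels to form in the embryo. All lines were kept on irradiated mouse embryonic fibroblasts and then without feeders before differentiation. Each genotype, and doxycycline, came with its own line, so what Etv2 does and what the choice of line does cannot be told apart wherever KO or OE is compared with WT. The labels name neither the Etv2 alleles nor the number of clones. They also leave it unsaid if replicate libraries came from separate cultures, and p-values then reflect the spread of these libraries alone, which may be technical.

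Imprinted genes are expressed mainly from the copy inherited from 1 parent. The choice is set by DNA methylation laid down in the egg or sperm at imprinting control regions, and after fertilisation the zinc finger proteins ZFP57 and ZFP445, with TRIM28, keep that methylation in place, ZFP57 binding methylated TGCCGC. Many imprinted genes act in fetal and placental growth, and imprints can be lost when embryonic stem cells are cultured. By textbook knowledge 20 of the 38 genes were set down as mainly paternally expressed and 18 as mainly maternally expressed, although for several this holds only in some tissues. The parent of origin of a read was not measured here, and in bulk samples fewer cells with an open region and less accessibility per cell cannot be told apart.

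RefSeq promoter windows of build GRCm38.p6, which run from 250 bases before to 50 bases after a start, were available for 31 of the 38 genes. They made up 50 windows, and 28 windows of 25 genes overlapped a region of the table. Windows are printed for the genes whose start regions gave the clearest differences, Plagl1 and Nnat in the KO comparison and Mest and Phlda2 in the OE comparison. They lie at chr10:13090582-13090881 on the + strand for Plagl1, at chr2:157559828-157560127 on the + strand for Nnat, at chr6:30733256-30733555 on the + strand for Mest and at chr7:143502475-143502774 on the - strand for Phlda2. Capitals mark the ZFP57 letters TGCCGC on either strand, which read GCGGCA on the other strand.
Plagl1: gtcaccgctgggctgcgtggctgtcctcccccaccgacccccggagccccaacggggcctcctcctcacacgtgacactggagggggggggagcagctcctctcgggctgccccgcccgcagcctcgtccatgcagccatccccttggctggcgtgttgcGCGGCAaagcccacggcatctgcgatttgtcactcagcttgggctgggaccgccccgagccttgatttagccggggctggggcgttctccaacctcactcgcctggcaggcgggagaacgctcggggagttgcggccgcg
Nnat: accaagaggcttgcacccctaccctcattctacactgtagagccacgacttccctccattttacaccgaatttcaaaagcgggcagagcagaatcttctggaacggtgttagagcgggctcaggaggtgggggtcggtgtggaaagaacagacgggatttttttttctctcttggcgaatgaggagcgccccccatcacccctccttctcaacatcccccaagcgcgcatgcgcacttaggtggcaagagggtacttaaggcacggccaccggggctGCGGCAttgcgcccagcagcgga
Mest: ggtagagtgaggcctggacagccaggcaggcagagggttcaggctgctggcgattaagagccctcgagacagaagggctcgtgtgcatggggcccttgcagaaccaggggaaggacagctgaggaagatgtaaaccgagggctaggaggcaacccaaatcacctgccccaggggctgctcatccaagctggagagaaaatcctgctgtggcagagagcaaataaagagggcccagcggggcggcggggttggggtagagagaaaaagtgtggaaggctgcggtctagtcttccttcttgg
Phlda2: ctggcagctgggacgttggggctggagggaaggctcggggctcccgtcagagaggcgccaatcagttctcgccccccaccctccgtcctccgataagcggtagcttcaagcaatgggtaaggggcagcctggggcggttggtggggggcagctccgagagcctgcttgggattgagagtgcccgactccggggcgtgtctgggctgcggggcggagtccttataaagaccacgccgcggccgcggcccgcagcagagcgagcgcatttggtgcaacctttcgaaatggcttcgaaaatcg
The printed Plagl1 and Nnat windows each held 1 ZFP57 match, and the printed Mest and Phlda2 windows held none. Mest has further windows at chr6:30737800-30738099 and chr6:30737803-30738102, which overlap each other. Each held 2 ZFP57 matches and 17 CpG dinucleotides, against 8 CpG dinucleotides in the printed Mest window. Neither of these further windows overlapped a region of the table, so accessibility there was not measured. Values for the start of Mest below are those over the printed window. Of all 32851 promoter windows in the RefSeq table, 11.6% held TGCCGC, against 13 of the 50 windows of imprinted genes. None of the 4 printed windows held YY1 letters GCCATNTT, ETS letters CGGAAG or GATA letters AGATAA on either strand, nor the CTCF motif. YY1, ETS, GATA and CTCF matches were held by 6.05%, 16.9%, 11.2% and 8.61% of all windows. The median number of CpG dinucleotides was 15.5 in the windows of imprinted genes and 7 in all windows. A match is a description of letters and not a binding site.

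Reads recovered in regions ran from 12477601 to 18853733 per library, and the median region held 27 to 42 reads. At the Etv2 region chr7:30634628-30635028 the signal was 563 and 611 normalized reads in WT DP, 475 and 493 across WT SP, 0.840 and 0 across KO DP, and 425 and 645 across OE SP, so both KO libraries were at or near 0. At the Kdr region chr5:75978321-75978721 the 8 libraries held 333 to 519 normalized reads. At the Pdgfra region chr5:75155806-75156206 they held 219 to 348, SP libraries included. Other regions of both genes differed between groups. The Kdr region chr5:75962170-75962570 held 14.6 and 8.98 across WT DP, 175 and 169.5 across WT SP, 24.3 and 7.13 across KO DP, and 576 and 969.6 across OE SP. The Pdgfra region chr5:75154878-75155278 held 199 and 233, 168 and 159.6, 269 and 215, and 85.3 and 57.8 in the same order. The 2 OE libraries stood apart from each other: the summed signal of OE replicate 2 over that of OE replicate 1 had a median of 1.25 over the 38 genes, was above 1 at 36 of them, and ran from 0.784 to 1.77. OE results that turn on that gap are therefore given with each library left out.

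In the KO comparison, 12 of the 19 clusters held at least 1 called region, and the calls kept with every library left out were gains at Snrpn, Peg13, Plagl1 and Nnat with Blcap. A region was called at a limma adjusted p under 0.05, with adjustment across the 167573 regions in the test, and "rose" and "fell" are used only for called regions. Among the 569 member regions 23 rose (4.04%) and 12 fell (2.11%), while over all regions 1.72% rose and 2.21% fell. Counts of rises are thus above the background and counts of falls near it, with no test of the difference. On summed signal 5 of the 38 genes rose and 1 fell, while of all 18584 genes 2.04% rose and 5.31% fell. With each of the 4 libraries left out in turn, 9 of the 23 rises and 0 of the 12 falls kept their call in every case. The 9 rises lay at 5 genes and ran from 1.79 to 4.19 as log2 of the value plus 5, a scale on which changes of low regions are understated. In all 9 both KO libraries lay above the other 6 libraries, with KO values of 44.0 to 190.2 normalized reads against at most 52.6 elsewhere. Of the 9, 5 had a mean below 10 in the other 6 libraries and so passed the filter only through the KO libraries. They are the 5 Snrpn regions of the 9, which therefore had to differ, and their p-values are given as a description. Of all 23 rises, 6 had a mean below 10 in the other 6 libraries, so a rise outside those 9 had to differ as well. Without any filter the counts of rises and falls were again 23 and 12.

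**Figure D1:**
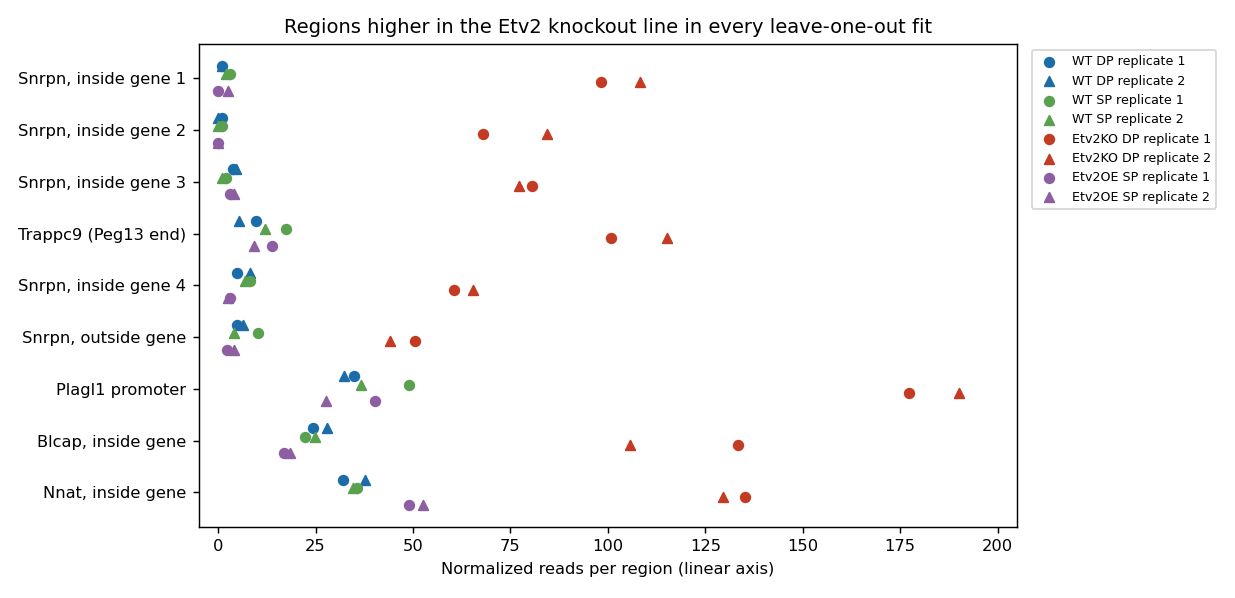
Normalized reads (linear axis) in each of the 8 libraries for the 9 imprinted-locus regions that rose in the KO line and kept the call with each library left out, in order of log2 change. Circles are replicate 1 and triangles replicate 2, and in every row both KO points, between 44.0 and 190.2, lie to the right of the other 6.

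The largest gains lay in the long upstream part of Snrpn. Snrpn encodes a protein of the splicing machinery, is paternally expressed, and its transcripts run on through the noncoding Snhg14 towards Ube3a, which is maternally expressed in neurons. At chr7:60244178-60244578, inside the Snrpn span, the values were 0.971 and 0.898 across WT DP, 3.05 and 1.98 across WT SP, 98.2 and 108 across KO DP, and 0 and 2.63 across OE SP. All 6 libraries other than KO were at or near 0 there. The KO libraries held 208 reads against 2 across WT DP, a ratio of 109.7 after scaling, with a 95% counting interval of 30.0 to 912. The log2 change was 4.19 (SE 0.30, adjusted p 1.68e-05).

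Another site inside the span, chr7:60237870-60238270, held 0.971 and 0 across WT DP, 1.02 and 0 across WT SP, 68.0 and 84.4 across KO DP, and 0 in both OE SP libraries. With 1 read in WT DP against 152 across KO DP the ratio was 160.3 with a 95% counting interval of 28.3 to 6373. Its log2 change was 3.89 (SE 0.30, adjusted p 2.8e-05). These intervals cover counting error only. At chr7:60133386-60133786 the values were 3.88 and 4.49 across WT DP, 2.04 and 0.991 across WT SP, 80.6 and 77.3 across KO DP, and 2.92 and 3.94 across OE SP (log2 change 3.19, SE 0.27, adjusted p 5.99e-05). At chr7:60446131-60446531, near the upper end of the span, they were 4.85 and 8.08, 8.14 and 6.94, 60.5 and 65.4, and 2.92 and 2.63 in the same order (log2 change 2.58, SE 0.27, adjusted p 0.000274).

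A similar gain stood 97.8 kb outside the span, at chr7:60547742-60548142, with 4.85 and 6.29 across WT DP, 10.2 and 3.97 across WT SP, 50.4 and 44.0 across KO DP, and 2.19 and 3.94 across OE SP (log2 change 2.30, SE 0.31, adjusted p 0.00181). The strongest Snrpn region, chr7:60004111-60004511, did not share the gain: it held 189 and 164 across WT DP, 258 and 249.8 across WT SP, 173 and 121 across KO DP, and 143 and 189 across OE SP, so that KO and WT DP overlapped. Over the 15 Snrpn regions the summed signal was 599.9 and 577 across WT DP and 936 and 925 across KO DP, a log2 change of 0.66 (SE 0.13, adjusted p 0.00339 over all genes). That call was lost on leaving out WT DP replicate 2 or either KO library.

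Other genes of the cluster did not rise. Ndn, a growth suppressor of neurons, had a lower sum in KO DP, 162 and 165 against 234 and 226 (log2 change -0.48, SE 0.14, adjusted p 0.0408), a call lost with each of the 4 libraries left out. Magel2 and Mkrn3, a ubiquitin ligase cofactor and a ring finger protein that holds back puberty, were not called, with log2 changes of -0.14 and -0.51. Ube3a, the ubiquitin ligase lost in Angelman syndrome, held 1055 and 1019 across WT DP and 992 and 808 across KO DP at its start region (log2 change -0.21, adjusted p 0.507). The 196 other regions within 2 Mb of the cluster were also unusual in the KO line: 8.16% rose and 7.14% fell, both above the 1.72% and 2.21% of all regions, and the part of this neighbourhood in the Snrpn gains was not tested. The sources used here do not give the treatment of reads from repeated sequence, and part of this interval holds repeated small nucleolar RNA genes.

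Peg13 is a paternally expressed noncoding RNA with its own imprinting control region, nested inside Trappc9, whose protein takes part in vesicle traffic. The region at its end, chr15:72809831-72810231, held 9.71 and 5.39 across WT DP, 17.3 and 11.9 across WT SP, 101 and 115 across KO DP, and 13.9 and 9.20 across OE SP. KO values stood clear of the other 6 libraries, and the log2 change was 3.19 (SE 0.28, adjusted p 7.62e-05). A neighbour at chr15:72808976-72809376 went from 2.91 and 4.49 across WT DP to 46.2 and 42.8 across KO DP (log2 change 2.51, SE 0.42, adjusted p 0.00611), but that call was lost with each library left out. This neighbour may have passed the filter only through the KO libraries, so its p-value is given as a description. Along the whole of Trappc9 3 of 69 regions rose and 2 fell, beside 2.63% and 0.329% of the 304 other regions within 2 Mb. The summed signal, 4169 and 4145 across WT DP against 3983 and 3756 across KO DP, was not called (log2 change -0.10, adjusted p 0.766).

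Plagl1 encodes a zinc finger factor that restrains cell division, and its paternally expressed start overlaps that of the noncoding Hymai. The region over the promoter window printed above, chr10:13090557-13090957, held 34.9 and 32.3 across WT DP, 48.9 and 36.7 across WT SP, 177 and 190.2 across KO DP, and 40.1 and 27.6 across OE SP. Both KO libraries were several times above the other 6, which overlapped among themselves, and the log2 change was 2.29 (SE 0.23, adjusted p 0.000181). None of the other 13 Plagl1 regions tested was called in this comparison. The sum over the locus, 623 and 574 across WT DP against 844 and 839 across KO DP, rose by 0.49 on the log2 scale (SE 0.13, adjusted p 0.0236), a call lost with each library left out. Among the 190 other regions within 2 Mb, 1.05% rose and 1.05% fell.

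Nnat, which encodes a small membrane protein of developing brain, is paternally expressed and lies within the span of Blcap, a gene of unclear function in cell growth. Inside both spans, chr2:157561195-157561595 held 32.0 and 37.7 across WT DP, 35.6 and 34.7 across WT SP, 135 and 129.5 across KO DP, and 48.9 and 52.6 across OE SP. This is a log2 change of 1.79 (SE 0.20, adjusted p 0.000414), with OE SP between the wild-type and KO values. The neighbouring chr2:157558489-157558889 held 24.3 and 27.8, 22.4 and 24.8, 134 and 106, and 16.8 and 18.4 in the same group order (log2 change 2.00, SE 0.23, adjusted p 0.000457). The region over the Nnat promoter window, chr2:157559864-157560264, held 18.4 and 32.3 across WT DP and 84.8 and 71.3 across KO DP (log2 change 1.48, SE 0.32, adjusted p 0.0237), a call lost with each library left out.

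Further rises at 8.71, 19.3 and 31.0 kb outside Blcap had log2 changes of 1.17, 1.83 and 1.34, so that 6 of the 20 regions of the cluster rose and 0 fell. Only 0.192% of the 521 other regions within 2 Mb rose. Summed over its 20 regions Blcap held 973 and 1035 across WT DP and 1359 and 1311 across KO DP (log2 change 0.41, SE 0.12, adjusted p 0.0461), a call lost with each library left out. The region over the Blcap promoter window was not called, with 221 and 209 across WT DP and 185 and 202 across KO DP (log2 change -0.15, adjusted p 0.653).

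The other 9 rises were spread over Asb4 with 2, and over Grb10, Igf2r, Slc22a2, Sgce, Slc38a4 and the remaining Trappc9 and Snrpn sites, and none kept its call with every library left out. Each rise is counted once, and the 3 outside Blcap, the Nnat start and the second Peg13 site also lost theirs. Falls lay at the Dlk1-Dio3 cluster with 5 of the 12, at Trappc9 with 2, and with 1 each at Rasgrf1, Zdbf2, Slc38a4, Igf2r and Gnas. The lowest log2 change, -1.31 (SE 0.25, adjusted p 0.014), was at chr12:109539649-109540049 near the start of Meg3, with 47.6 and 44.9 across WT DP and 18.5 and 13.1 across KO DP. DESeq2 did not call it. The neighbouring start of Meg3, a maternally expressed noncoding RNA, held 76.7 and 83.5 across WT DP and 46.2 and 53.5 across KO DP, without overlap but short of the threshold (log2 change -0.64, SE 0.19, adjusted p 0.0827).

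At the starts of most imprinted genes KO and WT DP were not told apart. Of the 25 regions over a promoter window of a listed gene 2 rose, those of Plagl1 and Nnat, and 0 fell, while of all 12294 such regions 0.683% rose and 2.45% fell. At an unadjusted p below 0.05 8 of the 35 members over a promoter window of any gene, listed or not, were counted (22.9%), near the 20.2% of all promoter-window regions. Of the 35, 2 were called lower, at the unlisted Gm34081 and Dio3os. The log2 changes of the 23 not called ran from -0.53 to 0.25. Outside those windows, regions within 1 kb of a gene end were called at Asb4 and Dlk1. That of Asb4 rose, from 20.4 and 26.0 across WT DP to 54.6 and 66.6 across KO DP (log2 change 1.22, SE 0.25, adjusted p 0.018). That of Dlk1 fell, from 129 and 143 to 83.1 and 74.9 (log2 change -0.75, SE 0.18, adjusted p 0.0449). Neither call was kept with every library left out. The shared start of Peg3 and Usp29, a zinc finger gene and a ubiquitin protease gene that are both paternally expressed, held 460.1 and 479 across WT DP and 533 and 462 across KO DP (log2 change 0.08, SE 0.18). Over the printed window of Mest, a paternally expressed hydrolase gene, WT DP held 126 and 104 and KO DP 128 and 132 (log2 change 0.17, SE 0.20). The start of Igf2r, the maternally expressed receptor that clears IGF2, held 226 and 257 across WT DP and 212 in both KO libraries (log2 change -0.18, SE 0.16). At the start of Airn, the noncoding RNA that silences Igf2r on the paternal copy, the values were 223 and 223 across WT DP and 185 and 209 across KO DP (log2 change -0.18, SE 0.18). These are values that missed the threshold and not evidence that the groups were equal.

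**Figure D2:**
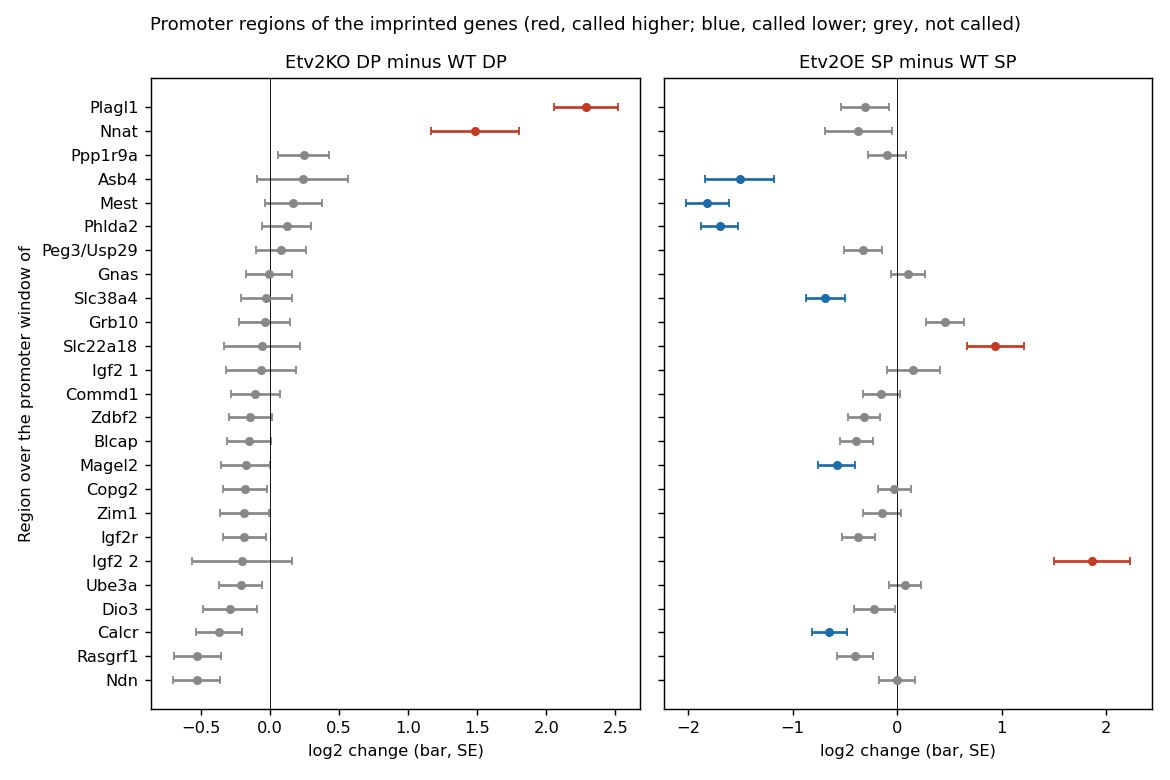
Log2 change of the 25 regions over promoter windows of imprinted genes in the KO comparison (left) and the OE comparison (right), with bars of 1 SE and red, blue and grey for called higher, called lower and not called. On the left 2 points stand apart at 2.29 (Plagl1) and 1.48 (Nnat), and on the right 6 are called lower and 2 higher.

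In the OE comparison, more imprinted regions fell than rose, and the rises were most numerous in Trappc9. Relative to WT SP, 72 of 569 member regions rose (12.7%) and 223 fell (39.2%), against 16.6% and 31.9% of all regions. The members' median log2 change was -0.37 and that of all regions -0.22. Median-of-ratios scaling moved the latter to 0.00 and gave 102 rises and 174 falls among members (37.0% rises among calls, against 24.4% as deposited), beside 23.5% and 25.2% of all regions. Scaling on the 10000 highest regions gave 91 and 185, beside 22.1% and 26.5% of all regions. Falls outnumbered rises under each scaling. Of the 72 rises, 18 had a mean below 10 in the other 6 libraries and so had to differ. Most of these 18 are among the rises kept with each library left out, a check that does not bear on them. Without OE replicate 1 there were 94 rises and 225 falls, with 20.6% and 32.2% of all regions called. Without OE replicate 2 there were 64 and 264, with 16.5% and 39.9% of all regions called. Leaving out each of the 4 libraries in turn, 44 rises and 135 falls kept their call.

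On the summed signal of a gene, 20 of the 38 fell and 3 rose, where 24.6% of all 18584 genes fell and 9.27% rose. Under median-of-ratios scaling 16 fell and 7 rose, while of all genes 15.7% fell and 31.4% rose, so that the direction over all genes turned with the scaling. The 15 genes not called ran from -0.31 to 0.47 on the log2 scale, with 11 below 0. Among the 20 paternally expressed genes 12 fell and 0 rose, and among the 18 maternally expressed genes 8 fell and 3 rose; the difference between the classes was not tested. Leaving out a library, from 15 to 28 of the 38 genes fell and from 0 to 6 rose, while the share of all genes called in either direction ran from 19.6% to 66.4%.

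**Figure D3:**
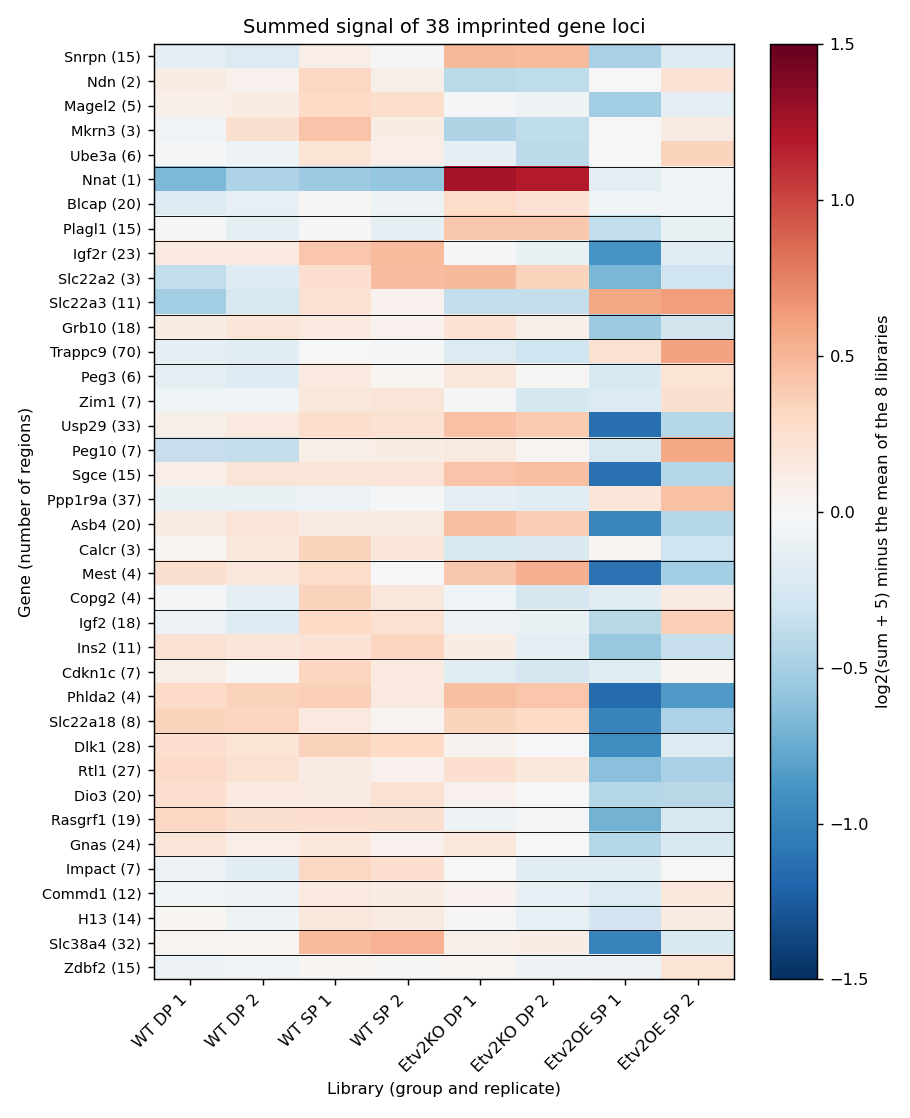
Summed signal of each imprinted gene's regions in the 8 libraries, as log2(sum + 5) minus the gene's mean over the libraries, with lines between the 19 clusters and the number of regions in brackets. Nnat is high in both KO libraries (135 and 129.5 against 32.0 to 52.6 elsewhere). OE replicate 1 is below OE replicate 2 at most genes, as at Slc38a4 (1429.8 against 2449). At Phlda2 both OE libraries are low (272 and 336 against 783 and 676 across WT SP).

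Phlda2, a maternally expressed gene that limits placental growth, had summed signal of 783 and 676 across WT SP and 272 and 336 across OE SP, a log2 change of -1.25 (SE 0.13, adjusted p 1.13e-06). Its promoter region, chr7:143502492-143502892, over the window printed above, held 506 and 493 across WT DP, 528 and 463 across WT SP, 558 and 530.1 across KO DP, and 125 and 177 across OE SP. Both OE libraries lay below the other 6, and the log2 change was -1.70 (SE 0.18, adjusted p 2.16e-05). The neighbour Cdkn1c, the cell cycle inhibitor p57, was not called on its sum, with 1389 and 1230.2 across WT SP and 979 and 1133 across OE SP (log2 change -0.31, adjusted p 0.0684).

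Grb10, an adaptor that dampens insulin and growth factor signalling, fell in sum from 1249 and 1179 to 767 and 930.2 (log2 change -0.52, SE 0.13, adjusted p 0.0046), a call lost without WT SP replicate 1. Inside it chr11:11961949-11962349 went from 190.3 and 175 across WT SP to 8.02 and 61.8 across OE SP (log2 change -2.67, SE 0.51, adjusted p 0.00107), while the promoter region was not called and pointed upwards (111 and 97.2 against 147 and 142, log2 change 0.46, adjusted p 0.0561). Igf2r fell in sum from 3253 and 3409 to 1323 and 2177 (log2 change -0.97, SE 0.18, adjusted p 0.000364). Its start region held 262 and 248 across WT SP and 201 and 191 across OE SP and missed the threshold (log2 change -0.37, adjusted p 0.0678). Beside the start of Airn inside Igf2r, chr17:12740358-12740758 fell from 201 and 209 to 49.6 and 113 (log2 change -1.39, SE 0.29, adjusted p 0.0019).

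Igf2, the paternally expressed fetal growth factor, was not called on its sum, with 3046 and 2896 across WT SP and 1854 and 3174 across OE SP, so that the OE libraries lay on both sides of WT SP. The region over its upstream promoter window, chr7:142666726-142667126, held 12.6 and 12.6 across WT DP, 21.4 and 6.94 across WT SP, and 12.6 and 8.32 across KO DP, and reached 47.4 and 74.9 across OE SP (log2 change 1.87, SE 0.36, adjusted p 0.0012). The neighbouring Ins2, an insulin gene, fell in sum (log2 change -0.73, SE 0.13), and its region chr7:142692276-142692676 went from 53.9 and 53.5 to 4.38 and 5.26 (log2 change -2.58, SE 0.23, adjusted p 1.03e-05). Dlk1, a Notch-like membrane protein of progenitors and adipose tissue, fell in sum from 3254 and 3159 to 1342 and 2227 (log2 change -0.89, SE 0.18, adjusted p 0.000873). Of the 75 regions in the Dlk1-Dio3 cluster 38 fell and 0 rose, while of 576 other regions within 2 Mb 37.8% fell and 13.4% rose.

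Among transporters the 4 listed genes differed from each other. Slc38a4, a paternally expressed amino acid transporter of placenta and liver, fell in sum from 3987 and 4118 across WT SP to 1429.8 and 2449 across OE SP (log2 change -1.11, SE 0.19, adjusted p 0.000165). There 19 of 32 regions were lower and 1 higher, beside 31.4% and 14.1% of the 439 other regions within 2 Mb. The lowest log2 change of all members lay inside Slc38a4 at chr15:97024194-97024594, which held 259 and 303 across WT DP, 439 and 447 across WT SP, 230.1 and 235 across KO DP, and 14.6 and 98.5 across OE SP (log2 change -3.31, SE 0.51, adjusted p 0.00027). Both OE values were below all others, although they differed widely from each other. Slc22a18 fell in sum (log2 change -0.84, SE 0.15), led by chr7:143485451-143485851 with 369.9 and 347 across WT DP, 167 and 159.6 across WT SP, and 8.02 and 31.5 across OE SP (log2 change against WT SP -2.95, SE 0.34). Its promoter region rose instead, from 33.6 and 37.7 to 58.4 and 90.7 (log2 change 0.94, SE 0.27, adjusted p 0.0135), a call lost with either WT SP library or OE replicate 2 left out. Slc22a2, an organic cation transporter gene, fell (log2 change -0.84, SE 0.20), and its neighbour Slc22a3, of the same family, rose from 540.5 and 481 to 692 and 712 (log2 change 0.46, SE 0.13, adjusted p 0.00995), a call lost without WT SP replicate 2.

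Among genes of other roles, Mest had a sum of 373 and 305 across WT SP and 140.1 and 215 across OE SP (log2 change -0.94, SE 0.16, adjusted p 0.00025). The region over its printed window, chr6:30733412-30733812, held 126 and 104 across WT DP, 75.3 and 62.5 across WT SP, 128 and 132 across KO DP, and 17.5 and 14.5 across OE SP, with OE below and KO and WT DP above WT SP (OE against WT SP log2 change -1.81, SE 0.20, adjusted p 3.44e-05). Usp29 fell from 4107 and 3993 to 1552 and 2534 (log2 change -1.03, SE 0.18), with 20 of its 33 regions lower and 3 higher. Of the 145 other regions within 2 Mb of the Peg3 cluster 20% fell and 15.9% rose. The start that Usp29 shares with Peg3 was not called (652 and 512 against 393 and 539). Sgce, a sarcoglycan gene, fell by 0.96 on the log2 scale and Asb4, a ubiquitin ligase adaptor, by 0.83. Rtl1, a gene derived from a retrotransposon, fell by 0.65, Dio3, the enzyme that inactivates thyroid hormone, by 0.60, and Rasgrf1, a Ras exchange factor, by 0.72. Magel2 fell by 0.61, Gnas, the stimulatory G protein alpha subunit, by 0.44, Calcr, the calcitonin receptor, by 0.39, Snrpn by 0.38 and Impact, a regulator of translation, by 0.36. Of these the calls of Gnas, Calcr, Snrpn and Impact were lost under median-of-ratios scaling. At Gnas 10 of 24 regions fell and 0 rose, and 41.8% and 12.5% of the 385 other regions within 2 Mb, so falls were about as frequent around it. Inside Gnas chr2:174285059-174285459 went from 334 and 290 to 161 and 147 (log2 change -0.99, SE 0.18, adjusted p 0.000882). At Impact 1 of 7 fell and 1 rose, beside 28.3% and 29.9% of the 318 other regions within 2 Mb. Inside Impact chr18:12955426-12955826 went from 490 and 449 to 174 and 251 (log2 change -1.15, SE 0.19, adjusted p 0.000375). Both regions lie within 1 kb of a gene end and kept their call under every alternative.

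**Figure D4:**
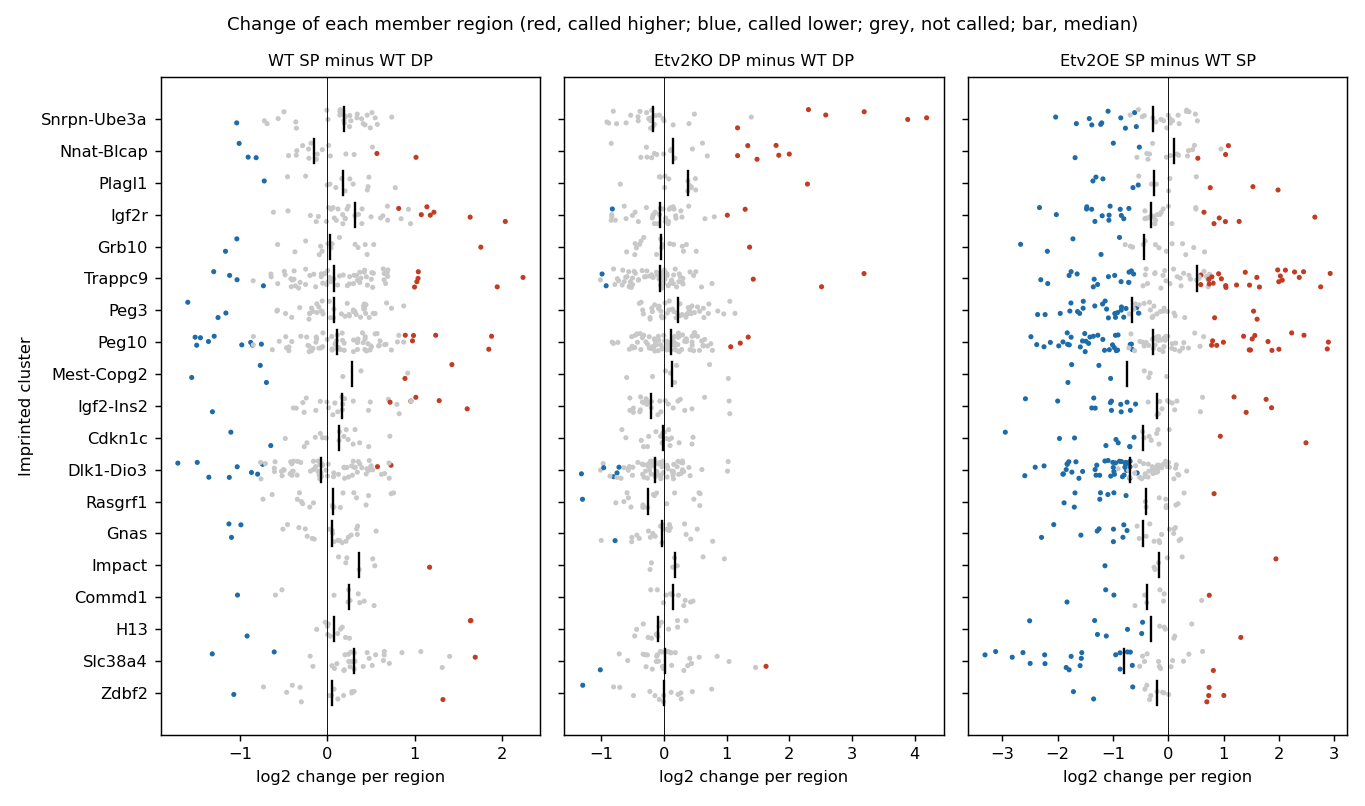
Log2 change of each of the 569 tested member regions by cluster in the 3 comparisons, with called regions in red or blue and a black bar at the cluster median. In the OE comparison the Dlk1-Dio3 cluster holds 38 falls and 0 rises and Trappc9 26 rises and 15 falls, while in the KO comparison Snrpn-Ube3a and Nnat-Blcap hold 6 rises each of the 23 and 0 of the 12 falls.

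Trappc9 had 26 rises and 15 falls among 69 tested regions, where 18.8% of the 304 other regions within 2 Mb rose and 27.6% fell. Its summed signal went from 4574 and 4541 across WT SP to 5419 and 7005 across OE SP (log2 change 0.43, SE 0.16, adjusted p 0.0486), a call lost under 7 alternatives, pseudocount 1 and the leaving out of either WT SP library among them. At chr15:72928671-72929071 the values were 9.71 and 13.5 across WT DP, 63.1 and 54.5 across WT SP, 12.6 and 15.5 across KO DP, and 365 and 494 across OE SP (OE against WT SP log2 change 2.75, SE 0.23, adjusted p 7.34e-06). The same order, with WT DP and KO DP lowest and OE SP highest, was seen at chr15:73036644-73037044, with 5.82 and 13.5, 58.0 and 66.4, 5.88 and 9.51, and 281 and 414 across WT DP, WT SP, KO DP and OE SP. At chr15:72970371-72970771, by contrast, 6 libraries held 2.52 to 5.94 and OE SP held 59.1 and 68.3 (log2 change 2.93, SE 0.29, adjusted p 1.53e-05). That region passed the filter only through the OE libraries and so had to differ, and its p-value is given as a description. The Peg13 end did not take part, with 17.3 and 11.9 across WT SP and 13.9 and 9.20 across OE SP.

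**Figure D5:**
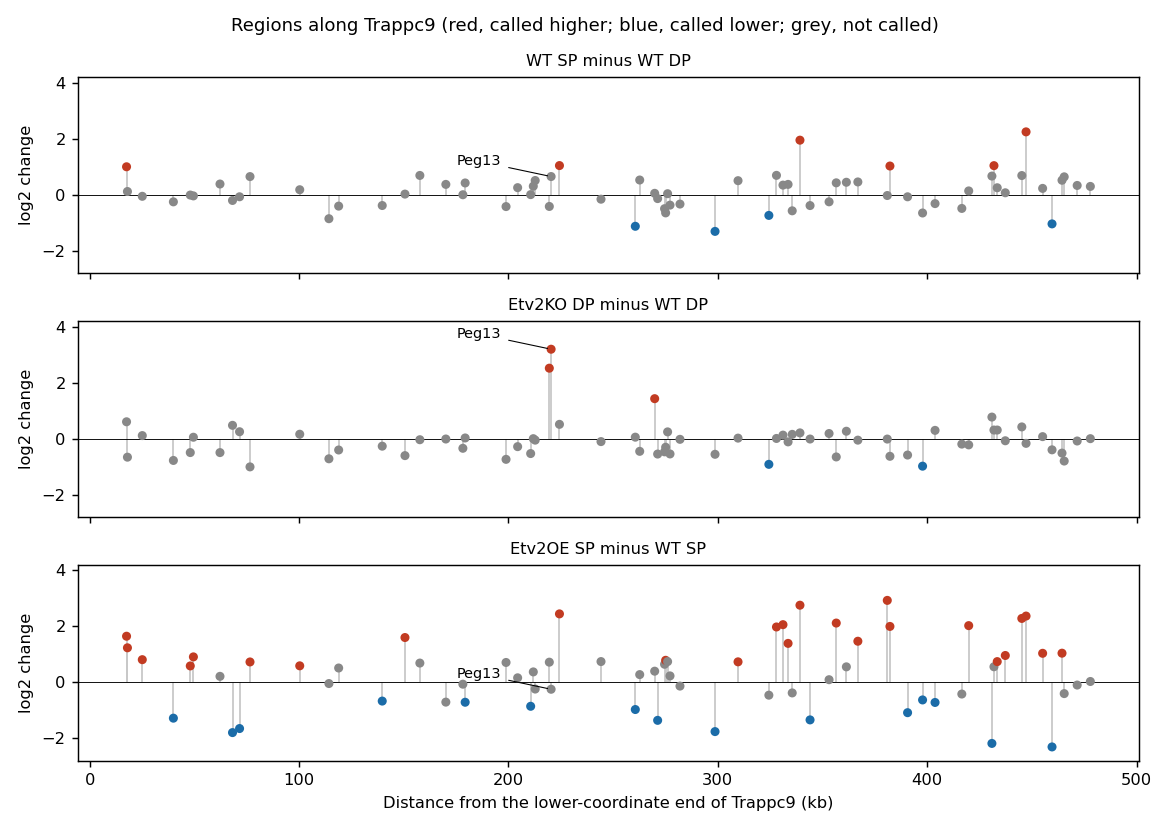
Log2 change of the 69 tested regions along Trappc9 by distance from its lower-coordinate end (kb), in the 3 comparisons, with called regions in red or blue. The Peg13 end stands at 3.19 in the KO comparison and at -0.25 in the OE comparison, where 26 other regions are called higher.

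Ppp1r9a, a maternally expressed gene for an actin-binding scaffold, had a similar mixture, with 9 rises and 10 falls among 36 tested regions. Of the 218 other regions within 2 Mb of the Peg10 cluster, which holds Ppp1r9a, 14.7% rose and 34.4% fell. At chr6:5093563-5093963 Ppp1r9a held 39.8 and 31.4 across WT DP, 99.7 and 82.3 across WT SP, 31.1 and 19 across KO DP, and 459.6 and 585 across OE SP (OE against WT SP log2 change 2.45, SE 0.24). Its call on the sum (log2 change 0.37, SE 0.13, adjusted p 0.0381) was lost without either WT SP library. Other large rises lay 38 kb from Peg10 (3.05 and 2.97 to 34.3 and 82.8, log2 change 2.87), inside Slc22a3 (33.6 and 27.8 to 193 and 246, log2 change 2.65) and 8.52 kb from Cdkn1c (3.05 and 4.96 to 32.1 and 63.1, log2 change 2.49). Of the 72 rises 18 had a mean below 10 in the other 6 libraries, so the filter on low values kept them only through the OE libraries. The site chr15:72970371-72970771 in Trappc9 is among these 18, and their p-values are a description. Over the promoter windows of listed genes 2 of 25 regions rose and 6 fell, against 6.6% and 18.1% of all promoter-window regions. Besides Mest and Phlda2 the falls were at Asb4 (log2 change -1.5), Slc38a4 (-0.69), Calcr (-0.65) and Magel2 (-0.58), of which Slc38a4 lost its call without either WT SP library and Calcr and Magel2 under median-of-ratios scaling.

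Marker genes of several cell types also differed in accessibility in the OE comparison. Summed over gene-end regions of the marker lists, endothelial genes (8 of 8 with a region) held 1821 to 1830.0 normalized reads in WT SP and 3076 to 4619.5 across OE SP, and blood genes (4 of 6) 629 to 672 and 1050.4 to 1445. Counted over all regions of the blood genes the direction was the other: 18 of 84 rose and 40 fell, with a median log2 change of -0.54, against 71 and 43 of 199 for the endothelial genes. Cardiac genes (6 of 6) held 2084 to 2207 across WT SP and 743 to 1369 across OE SP, and paraxial and streak mesoderm genes (5 of 6) 1111 to 1132 and 499 to 507. In the KO comparison these 4 lists held 1271 to 1317, 364 to 369, 2009 to 2093 and 2233 to 2255 across WT DP and 1078 to 1104, 269.5 to 277, 2402 to 2475 and 1729 to 1871 across KO DP. Pluripotent cell genes (4 of 5) ranged from 355 to 382 across KO DP, 484 to 530.0 across WT DP, 460.0 to 463 across WT SP and 437 to 487 across OE SP. Endoderm genes (3 of 4) held 336 to 359 across KO DP, 446 to 478 across WT DP, 474 to 539 across WT SP and 749.9 to 867 across OE SP. Counted over all 51 regions of the endoderm genes, 10 rose and 13 fell in the OE comparison (19.6% and 25.5%), with a median log2 change of -0.12. Of all regions 16.6% rose and 31.9% fell. Fibroblast genes (5 of 6) held 985 to 1059 across KO DP, 1182 to 1240.4 across WT DP, 1248 to 1256 across WT SP and 819 to 872 across OE SP. The part of these differences in the imprinted-locus results was not tested, and no table measures the share of each cell type.

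Between the wild-type populations, which share a line, imprinted loci differed about as often as other regions. In WT SP relative to WT DP 36 of 569 member regions rose (6.33%) and 45 fell (7.91%), against 6.2% and 8.12% of all regions. With each library left out in turn 6 rises and 10 falls kept their call. The fits with a library left out called a smaller share of all regions too. Scaling on the 10000 highest regions gave 26 rises and 68 falls, beside 4.36% and 12.5% of all regions. On summed signal 1 of 38 genes rose and 0 fell, against 4.46% and 2.88% of all genes, with 7 genes at an unadjusted p below 0.05 (18.4%, against 29.2% of all genes). That gene was Slc22a3, with 320.3 and 389.8 across WT DP and 540.5 and 481 across WT SP (log2 change 0.52, SE 0.13, adjusted p 0.0192), a call lost under DESeq2 and on leaving out WT DP replicate 1 or either WT SP library.

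Single regions moved within these loci in both directions. The largest rise was the Trappc9 site at chr15:73036644 given above (log2 change 2.25, SE 0.30, adjusted p 0.000794). Inside Slc22a3, chr17:12427107-12427507 held 9.71 and 6.29 across WT DP, 52.9 and 43.6 across WT SP, 6.72 and 10.7 across KO DP, and 133 and 116 across OE SP (WT SP against WT DP log2 change 2.04, SE 0.26, adjusted p 0.000631). Here KO DP lay with WT DP, and OE SP above WT SP. The largest fall was outside Rtl1 at chr12:109549260-109549660, with 55.3 and 74.6 across WT DP, 15.3 and 16.9 across WT SP, 66.3 and 49.9 across KO DP, and 7.29 and 7.88 across OE SP (log2 change -1.72, SE 0.25, adjusted p 0.00125). Inside Usp29, chr7:6799304-6799704 fell from 202 and 209 to 68.2 and 60.5 (log2 change -1.60, SE 0.19), and inside Ppp1r9a, chr6:4910958-4911358 fell from 204 and 255 to 73.3 and 79.3 (log2 change -1.52, SE 0.19). The 25 promoter-window regions gave 2 rises, at Blcap and Igf2, and 1 fall, at Mest, against 2.9% and 1.44% of all such regions, and all 3 calls were lost with each library left out.

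A pair of named regions rose in WT SP and fell in OE SP. At chr15:97122283-97122683, 66.5 kb outside Slc38a4, the values were 71.8 and 53.0 across WT DP, 216 and 207 across WT SP, 89.8 and 97.5 across KO DP, and 11.7 and 51.2 across OE SP. Its log2 change was 1.70 (SE 0.41, adjusted p 0.0171) in WT SP against WT DP, a call lost with each library left out, and -2.82 (SE 0.41, adjusted p 0.00017) in OE SP against WT SP. The region chr2:152654387-152654787, 14.8 kb outside H13, a signal peptide peptidase gene, held 76.7 and 78.1, 252 and 254, 85.6 and 96.3, and 59.1 and 159 in the same group order, and its call in WT SP against WT DP was also lost with each library left out. The comparisons share the WT SP libraries, so a high WT SP value enters both.

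Among nested imprinted transcripts, the values at Peg13, Meg3 and Airn are given above. The Zrsr1 region inside Commd1 held 177 to 269 normalized reads over the 8 libraries and the Mcts2 region inside H13 held 421 to 589.9, and neither was called in any comparison (log2 changes of -0.39 to 0.37 and -0.07 to 0.22). The end regions of H19 and Kcnq1ot1 were nearest to no listed gene and are not members. Imprint maintenance factors (Zfp57, Zfp445, Trim28, the DNA methyltransferases, the Tet enzymes and others, 19 genes with 153 tested regions) had 3 rises and 3 falls in the KO comparison. They had 29 and 34 in the OE comparison (19% and 22.2%, beside 16.6% and 31.9% of all regions), and 13 and 7 between WT SP and WT DP (8.5% and 4.58%, beside 6.2% and 8.12%). A further 18 imprinted genes with 208 tested regions had 1 rise and 4 falls in the KO comparison, 43 and 72 in the OE comparison (20.7% and 34.6%), and 15 and 14 between the wild-type populations (7.21% and 6.73%). In the KO comparison 1.96% of the first list rose and 1.96% fell, and 0.481% of the second rose and 1.92% fell, beside 1.72% and 2.21% of all regions, with medians of -0.07 and -0.08 beside -0.07 over all regions.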

How the data were processed

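ATAC-seq was measured in 8 libraries of 50000 sorted cells each, read as paired ends of 75 bp, per the labels. The deposited table gives a signal per region, normalized reads, for 168842 regions of 401 to 1126 bp. The submitters' processing notes name Bowtie2, MACS2, DiffBind 3.14.1 and build mm10. The sources used here do not give the basis of the scaling, any Tn5 offset of the reads, the handling of repeats, or if peaks came from single or merged libraries. A scaling factor shifts all regions of a library alike, so it moves the balance of rises and falls. Values in every library were whole multiples of a library step (100% within 0.01 reads), so whole reads could be recovered for edgeR 4.0.16 and DESeq2 1.42.0, run as alternatives. Reads carry no molecular identifiers, so intervals cover counting error only.

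Regions were assigned with RefSeq gene spans of GRCm38.p6. limma 3.58.1 in R 4.3.3 was fitted to log2(value + 5) in 1 model of 4 group means with an empirical Bayes trend, over 167573 regions with a mean of at least 10. The same fit was run on the summed signal of 18584 genes. Tests were two-sided with Benjamini-Hochberg adjustment over all regions or genes, in 3 comparisons. The script was tested on simulated data. The members, lists and comparisons were chosen with earlier results of these data known. Regions named in the text are the 8 largest called rises and falls per comparison, the gene-end and nested-transcript regions, and other called or promoter-window regions chosen after their values were seen. The lists were imprint maintenance factors, other imprinted genes and markers of 7 cell types. Promoter sequences are RefSeq's.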

Additional observations from a re-analysis of the deposited data

How the results depend on the processing

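With 2 libraries per group, counts of calls moved with the processing, over all regions and genes as well as among members. Between WT SP and WT DP, 81 member regions were called, against 211 in a fit of the compared groups only, 53 with DESeq2, 53 within 10 kb of a gene, and 22 to 26 with a library left out. On summed signal 1 gene was called there, beside 7.34% of all genes. This count became 4 under median-of-ratios scaling (16.3% of all genes), 7 under scaling on the 10000 highest regions (0 rises, 19.3%) and 8 under quantile normalization (19.7%). It was 2 with pseudocount 20 (7.8%), 22 in the compared groups only (61.3%), 6 with edgeR (19.8%) and 2 with DESeq2 (12.8%). Within 10 kb it was 3 (7.17%), with a replicate block 2 (8.23%), and with a library left out no higher than reported. In the KO comparison, 35 regions were called, against 59 under quantile normalization, 53 with pseudocount 20, 143 in the compared groups only, 21 with DESeq2 and 9 in each fit with a library left out. The 6 genes of the KO comparison stood beside 7.36% of all genes. They became 12 under scaling on the 10000 highest regions (18% of all genes) and 11 under quantile normalization (18.4%). They became 19 in the compared groups only (35.9%), 12 with edgeR (18.9%) and fewer with a library left out. In the OE comparison, 295 regions were called (48.5% of all regions), against 187 with DESeq2 (33.5%), and fewer or more with a library left out. On the recovered reads edgeR called 99, 52 and 276 member regions in the 3 comparisons, beside 18.3%, 6.4% and 49.2% of all regions. Of the sums, Blcap in the OE comparison turned to 0.23 under median-of-ratios scaling, and Peg10, which was 0.07, to -0.46 within 10 kb and to between -0.34 and 0.48 with a library left out, where leaving out OE replicate 1 or 2 gave a call in opposite directions; none of these was called as reported. The cause of these shifts was not tested. The other shifts at single genes and regions kept their direction: a call was lost at 186 values and gained at 173.

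Groups share replicate numbers in the sample titles, although the KO library names carry other numbers than their titles. Deviations of libraries with the same replicate number correlated at -0.00 to 0.06, so they shared little deviation. Such values cannot show if libraries were prepared in pairs or in shared batches, and the samples were treated as unpaired. A replicate block gave 76 called member regions between WT SP and WT DP, 32 in the KO comparison and 287 in the OE comparison. Beside them stood 14.1%, 3.48% and 47.9% of all regions. No library of the table was left out of the reported fits. At a median of 27 to 42 reads per region, small differences at low regions were not detectable.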
